A study of Mus musculus with 19 samples.

Results

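Loss of *Ino80* alone, with p53 left intact, was examined in neocortex at embryonic day 13.5 by comparing all 5 single-mutant embryos (cKO-E) with all 7 control embryos (ctrl), which are 12 of the 19 libraries of the series. The remaining 7 libraries come from *Ino80*/*Trp53* double mutants and entered none of the values given here except where a fit over all libraries is named. The cKO-E embryos carried floxed *Ino80* recombined by *Emx1*-Cre, a driver knocked into *Emx1* that is active in the progenitors of cortical excitatory neurons and therefore in those neurons and later glia, but not in interneurons that migrate in, in microglia or in vessels. The genotype of the ctrl embryos is labelled only as control, so whether they carried Cre or floxed alleles is not given. All embryos were on a mixed C57BL/6 and 129 background and carried no p53 deletion by label. Each library was made from the microdissected cortex of 1 embryo by Click-seq, in which a molecular tag is joined to each cDNA and duplicate reads are removed. By sex label, ctrl held 4 females and 3 males, whereas cKO-E held 4 females and 1 male.

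INO80 is the ATPase of a chromatin remodelling complex that slides and spaces nucleosomes and exchanges histones near gene starts, replication forks and broken DNA. At this age the cortex consists of apical progenitors (radial glia) at the ventricle, intermediate progenitors above them and the first excitatory neurons, with Cajal-Retzius neurons at the surface. Interneurons arrive from the ganglionic eminences of the ventral forebrain, and microglia enter from outside the brain. A change in a bulk library can come from fewer cells of a type or from less RNA per cell, and these cannot be told apart.

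The libraries held between 1539303 and 5205035 counts on genes in ctrl and between 820915 and 3615327 in cKO-E, embryo D being the shallowest, and 3 counts correspond to between 0.599 and 3.66 CPM (counts scaled by library size and TMM factors) depending on the library. Libraries were labelled as batch 1 (4 ctrl, 3 cKO-E) or batch 2 (3 ctrl, 2 cKO-E), and what the batches were is not stated. Both genotypes were sampled in litters 4, 5 and 7, while the other litters held 1 of these genotypes each. In litter 5, cKO-E C and ctrl D were of batch 1 and ctrl F of batch 2, so littermate ratios of litter 5 cross the batches. The first principal component (30.5% of the variance) separated the genotypes, and the second (16.4%) separated the 3 embryos of litter 7 (ctrl H, ctrl I and cKO-E E) from the others. The sex label matched the Y-linked counts in 12 of 12 libraries. *Sox2* and *Neurod1*, which every cortex uses, were at 0 counts in every library. Both overlap other annotated genes along their whole length, whether that accounts for the zeros was not tested, and these markers are not read here.

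*Ino80* itself (chromosome 2, 119373042 to 119477687, GRCm38) ranged from 109 to 131 CPM in ctrl with a median of 116, and cKO-E embryos A to E held 156, 171, 173, 144 and 179 CPM. The cKO-E values all exceeded the ctrl range (log2 fold change 0.48, SE 0.07, adjusted p = 7.92e-05). The floxed allele loses only a few early exons, and the counts are sums over the whole gene, so these values do not check the deletion. Of the 17 measured genes of the complex and its partner *Yy1*, 3 rose, among them *Ino80* and *Ino80d* (the latter not with litter as a block, adjusted p = 0.145), and 1 fell, with a median log2 fold change of 0.0695.

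Of 11660 genes tested, 852 were higher in cKO-E (7.31%) and 1152 were lower (9.88%) at an adjusted p under 0.05 from edgeR's quasi-likelihood test. These shares are the background against which every gene group below is read. They differ with genomic span, since 3.04% of genes under 10 kb but 29.2% of those of at least 300 kb were higher. The background was not matched to the span of the genes in a group. At an adjusted p under 0.001, 124 genes were higher (1.06%) and 270 were lower (2.32%). These counts depend on the test, with 306 and 530 by edgeR's likelihood-ratio test and 224 and 494 by DESeq2. With litter as a block they were 71 and 127, and those at 0.05 were 642 and 833. Every cKO-E embryo lay above every ctrl embryo for 374 genes (3.21%) and below every ctrl embryo for 648 (5.56%). The genes that rose did so by a median log2 fold change of 0.54 and 128 of them by more than 1, whereas the genes that fell did so by a median of -0.40 and 42 by more than 1. Of the called genes, 813 of the 852 and 1113 of the 1152 moved the same way in all 3 litters that hold both genotypes, beside 5580 of all 11660, but the calls rest on the same embryos. In batch 1 alone 635 genes were higher and 1042 lower, and in batch 2 alone 309 and 297. The balance of the directions depends on the scaling, because with total counts in place of TMM factors 1068 genes were higher and 910 lower, so that the higher ones made up 54% of the calls in place of 42.5%.

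**Figure D1:**
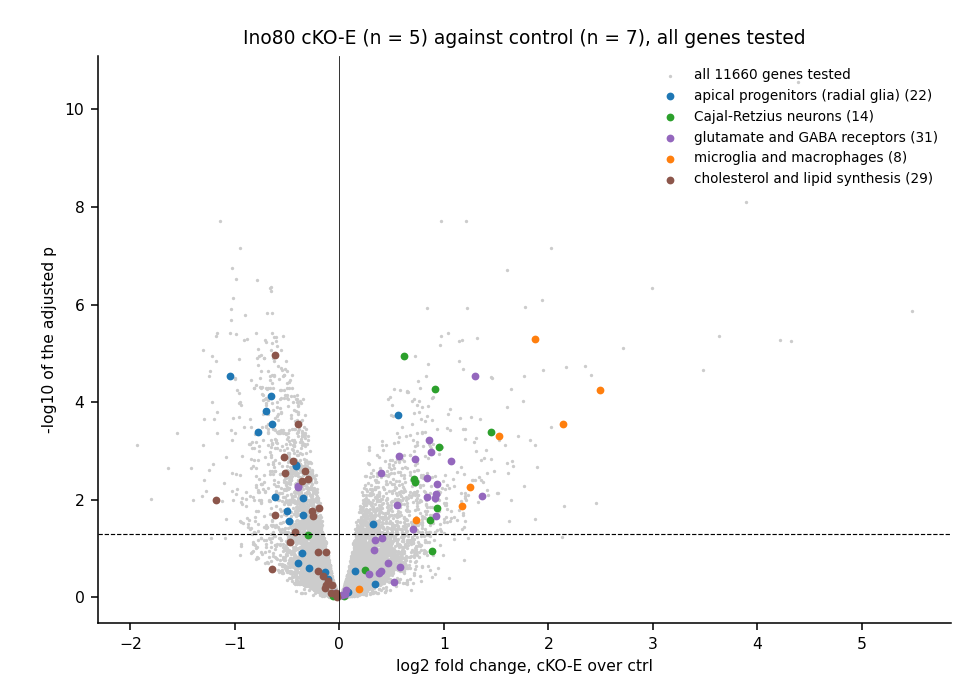
Log2 fold change (x axis, cKO-E over ctrl) and -log10 of the adjusted p (y axis) of the 11660 genes tested, with 5 gene lists in colour. Points above the dashed line are called at 0.05; most coloured apical progenitor and cholesterol genes that pass it lie left of 0, and the Cajal-Retzius, receptor and microglia genes that pass it lie mostly to the right.

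Genes of apical progenitors were mainly lower. Of 22 tested markers 12 fell and 2 rose, with a median log2 fold change of -0.374 beside 0.019 over all genes tested. The median was -0.41 within batch 1 and -0.437 within batch 2. The summed level of the list was 3160 to 3350 CPM in ctrl and 2540 to 3150 CPM in cKO-E. With 1 embryo left out, the number that fell was lowest, at 9, without cKO-E C.

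*Id4*, an inhibitor of basic helix-loop-helix factors that is active in dividing progenitors, showed the strongest decrease of the list. Ctrl embryos held 177 to 236 CPM (median 209) and cKO-E embryos A to E 76.2, 128, 70.7, 97.7 and 120 CPM. The groups did not overlap (log2 fold change -1.05, SE 0.13, adjusted p = 2.98e-05), and the littermate log2 ratios were -0.57, -1.55 and -0.90 in litters 4, 5 and 7. *Lhx2*, a LIM homeobox factor that specifies cortex against hem, lay between 260 and 344 CPM in ctrl and at 151, 179, 199, 181 and 213 CPM in cKO-E, again without overlap. It fell by 0.66 on the log2 scale (SE 0.09, adjusted p = 7.51e-05), and by a like amount in each shared litter (-0.64, -0.62 and -0.54). *Prom1*, which encodes the apical membrane protein CD133, lay between 143 and 201 CPM in ctrl and at 95.9, 103, 83.2, 116 and 122 CPM in cKO-E (log2 fold change -0.64, SE 0.10, adjusted p = 0.000278). *Ttyh1*, a chloride channel of radial glia, fell by 0.71 (SE 0.10, adjusted p = 0.000152), without overlap of the groups. The SoxB1 factor *Sox3* fell by 0.78 (SE 0.13, adjusted p = 0.000416) and *Sox9* by 0.42 (SE 0.08, adjusted p = 0.00192).

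*Pax6*, the classical radial glial transcription factor, fell less, by 0.35 (SE 0.10, adjusted p = 0.0211). Its groups overlapped, the decrease missed the threshold with litter as a block (adjusted p = 0.0653), without cKO-E A (0.0507) and without cKO-E C (0.0729), and an antisense gene shares its locus. *Fabp7* and *Cdh4* were the members that rose. *Fabp7*, the brain fatty acid binding protein, was at 52.8 to 71.4 CPM in ctrl and at 88, 80.3, 100, 100 and 98.8 CPM in cKO-E, all above the ctrl range (log2 fold change 0.56, SE 0.08, adjusted p = 0.000182).

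Intermediate progenitor genes fell in 7 of 22 cases, and none rose (median -0.322). The median was -0.372 in batch 1 and -0.0498 in batch 2. The rhomboid-like gene *Rhbdl3* led them, with 183 to 197 CPM in ctrl and 82.1, 71.9, 89.7, 97.7 and 96.2 CPM in cKO-E (log2 fold change -1.14, SE 0.07, adjusted p = 1.93e-08). *Neurog2*, the proneural factor of cortical neurogenesis, fell by 0.39 (SE 0.09, adjusted p = 0.00557). Its groups overlapped, and its adjusted p was 0.0491 with litter as a block and 0.172 in batch 2 alone. *Eomes* (TBR2), which defines these cells, lay between 151 and 214 CPM in ctrl and at 136, 144, 131, 150 and 181 CPM in cKO-E. Its log2 fold change of -0.32 (SE 0.09, adjusted p = 0.0165) missed the threshold with litter as a block (adjusted p = 0.194), without cKO-E A (0.0533) and without cKO-E C (0.0599), and in litter 7 the mutant was higher than its littermates (log2 ratio 0.13).

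**Figure D2:**
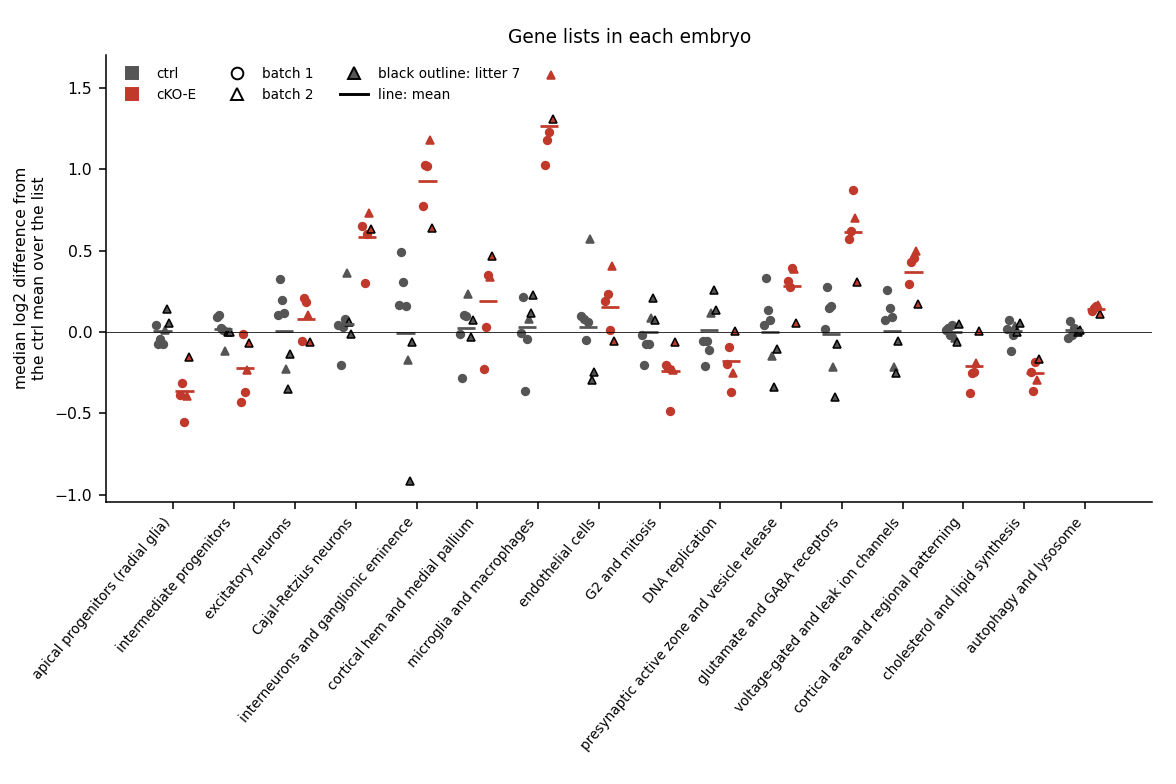
Median over each gene list of the log2 difference from the ctrl mean (y axis), 1 point per embryo, with ctrl in grey and cKO-E in red, batch 1 as circles, batch 2 as triangles, litter 7 outlined in black and the group mean as a line. The 5 cKO-E embryos lie below every ctrl embryo for apical progenitors and above every ctrl embryo for microglia, whereas the excitatory neuron points of the groups overlap.

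Genes of the cell cycle were lower in part. Of 55 genes of G2 and mitosis 17 fell and 1 rose (median -0.245, and -0.224 and -0.252 in batches 1 and 2). This count rests in part on cKO-E C, a litter 5 embryo, since without it 4 genes fell, while without ctrl B 25 did, and within batch 2 alone 2 did. *Aurka*, the mitotic spindle kinase, lay at 38.8 to 53.2 CPM in ctrl and at 34.5, 35.7, 29.1, 31.7 and 30.4 CPM in cKO-E. The groups did not overlap (log2 fold change -0.51, SE 0.10, adjusted p = 0.0026). *Mki67*, the general marker of cycling cells, fell by 0.30 (SE 0.07, adjusted p = 0.00711). *Ckap2*, which encodes a spindle protein, was the member that rose, by 0.43 (SE 0.08, adjusted p = 0.0016).

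Replication genes showed the same direction, in that 10 of 51 fell and none rose (median -0.146). *Pola1*, the catalytic subunit of the polymerase that primes DNA synthesis, lay at 238 to 355 CPM in ctrl and at 175, 207, 169, 167 and 210 CPM in cKO-E, all below ctrl (log2 fold change -0.64, SE 0.09, adjusted p = 0.000104). The fork protection factor *Tipin* fell by 0.74 (SE 0.10, adjusted p = 6.95e-05) and the helicase subunit *Mcm2* by 0.79 (SE 0.13, adjusted p = 0.000434). Of 35 centrosome and microcephaly genes 8 fell (5 without cKO-E C), with *Aspm*, whose loss causes primary microcephaly, among them (log2 fold change -0.37, SE 0.08, adjusted p = 0.00439). Among 31 genes of G1 control 4 fell (12.9%, near the 9.88% over all genes tested) and 1 rose (3.23%), and 7 fell without cKO-E E. Of 41 replication-dependent histone genes 1 fell (2.44%), namely *Hist2h2ac* (log2 fold change -0.53, SE 0.12, adjusted p = 0.00597).

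Neuronal genes did not move as 1 group. For excitatory neuron markers the counts were close to balanced, with 4 of 30 higher and 5 lower (2 higher without cKO-E B or C and 8 without ctrl B), and the median log2 fold change was 0.0394. The batches differed, with 3 higher and 7 lower in batch 1 alone (median -0.0307). In batch 2 alone 7 were higher and 2 lower (median 0.215). *Neurod6*, a marker of postmitotic excitatory neurons, had a difference of -0.11 on the log2 scale (SE 0.12, adjusted p = 0.585) and *Neurod2* of 0.09 (SE 0.13, adjusted p = 0.724). *Nrp1*, a semaphorin receptor of growing axons, fell from 230 to 296 CPM in ctrl to 126, 181, 192, 187 and 150 CPM in cKO-E (log2 fold change -0.70, SE 0.10, adjusted p = 8.15e-05). *Foxp2*, a transcription factor of deep-layer neurons, fell by 0.59 (SE 0.09, adjusted p = 0.000177), whereas the growth cone gene *Stmn2* rose by 0.49 (SE 0.10, adjusted p = 0.00237).

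Cajal-Retzius genes were higher. These neurons secrete reelin and arise largely from the borders of the pallium, including the cortical hem. Of 14 tested markers 8 rose and none fell, the median log2 fold change was 0.721 (0.745 in batch 1 and 0.57 in batch 2), and the summed level was 657 to 927 CPM in ctrl and 1020 to 1260 CPM in cKO-E. *Reln* itself lay at 448 to 583 CPM in ctrl and at 785, 724, 824, 795 and 698 CPM in cKO-E. The groups did not overlap (log2 fold change 0.62, SE 0.07, adjusted p = 1.13e-05), and the littermate log2 ratios were 0.51, 0.65 and 0.55. *Ebf3*, a transcription factor of hem-derived Cajal-Retzius cells, lay at 30.1 to 47.1 CPM in ctrl and at 73.9, 57.7, 72.8, 67.1 and 86.8 CPM in cKO-E (log2 fold change 0.91, SE 0.12, adjusted p = 5.26e-05). *Trp73*, a p53 family member and a marker of the same cells, rose by 0.96 (SE 0.17, adjusted p = 0.00083) from a low level of 9.35 to 20.6 CPM in ctrl. *Car10*, a catalytically inactive carbonic anhydrase, rose by 1.45 (SE 0.24, adjusted p = 0.000415).

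Markers of the hem were higher in part and uneven between embryos. Of 12 tested genes 3 rose (median 0.208). *Rspo3*, a Wnt agonist, lay at 23.9 to 49 CPM in ctrl and at 49.3, 56.3, 82.1, 58.6 and 88.5 CPM in cKO-E (log2 fold change 0.78, SE 0.16, adjusted p = 0.00337). *Lmx1a*, the LIM homeobox gene of hem and choroid plexus, was at 0.451 to 5.16 CPM in ctrl and at 6.9, 3.9, 1.79, 4.88 and 22 CPM in cKO-E (log2 fold change 2.15, SE 0.56, adjusted p = 0.0135). Its groups overlapped, and its call was lost without cKO-E E (adjusted p = 0.0885), without litter 7 (0.13) and with litter as a block (0.0614). *Wnt3a*, the defining hem ligand, had 0 counts in every ctrl library, and its highest value, 14 counts, was also in cKO-E E. It did not pass the exact permutation test (adjusted p = 0.276). *Rspo2*, also too low for the fit and chosen after its values were seen, did (exact permutation p = 0.00253, adjusted p = 0.0388). It held 1 to 6 counts in ctrl libraries and 4 to 208 in cKO-E libraries. The summed level of the list overlapped between ctrl (1270 to 1550 CPM) and cKO-E (1140 to 1690 CPM), and how much hem each dissection held was not measured.

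Interneuron and ganglionic eminence markers were also higher in part. Of 16 tested genes 5 rose and 1 fell (median 0.755, with 0.504 in batch 1 and 1.34 in batch 2), and the number that rose was lowest, at 2, without cKO-E C and highest, at 9, without ctrl B. The summed level was 1710 to 2300 CPM in ctrl and 2420 to 3170 CPM in cKO-E. *Ebf1*, a transcription factor of the striatal lineage that other cells also use, accounted for the firmest difference, with 50 to 78.1 CPM in ctrl and 102, 140, 119, 118 and 143 CPM in cKO-E (log2 fold change 1.04, SE 0.10, adjusted p = 3.86e-06). *Erbb4*, the neuregulin receptor of migrating interneurons, varied from 104 to 624 CPM among ctrl embryos and was at 683, 747, 928, 715 and 486 CPM in cKO-E. The groups overlapped, because cKO-E E of litter 7 was below the highest ctrl, but the littermate log2 ratios were all positive (0.97, 1.51 and 1.37), and the difference was 1.03 on the log2 scale (SE 0.28, adjusted p = 0.0158, and 0.054 without cKO-E C). Among 12 listed genes too low for the fit, *Nkx2-1*, which defines the medial eminence, had at most 1 count and *Gsx2* and *Lhx8* had none in any library. As with *Sox2*, a 0 in every library is not read as absence. *Slc32a1*, the vesicular GABA transporter, reached at most 5 counts among ctrl libraries and at least 3 and at most 8 among cKO-E libraries (exact permutation p = 0.00126, adjusted p = 0.0253), whereas *Dlx2* (0 to 10 and 2 to 10 counts) and *Dlx5* (0 to 22 and 2 to 9) did not pass, and these 3 genes were chosen after their values were seen.

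Genes of synaptic transmission were higher in part. Their rise stood beside the higher interneuron and Cajal-Retzius markers, and the part of those cells in it was not tested. Of 31 glutamate and GABA receptor genes 16 rose and 2 fell, with a median log2 fold change of 0.549 (0.455 in batch 1 and 0.664 in batch 2). *Gabrb1*, a subunit of the GABA-A receptor, lay at 12.6 to 21.9 CPM in ctrl and at 35.1, 30.4, 58.5, 46.4 and 43.4 CPM in cKO-E. No embryo overlapped (log2 fold change 1.29, SE 0.16, adjusted p = 2.86e-05). *Gabra2* of the same receptor rose by 0.88 (SE 0.16, adjusted p = 0.00107). The kainate receptor genes split, because *Grik1* rose by 0.57 (SE 0.11, adjusted p = 0.00126) while *Grik2*, at 1700 to 2080 CPM in ctrl, fell by 0.40 (SE 0.09, adjusted p = 0.00527), as did *Grik5* (log2 fold change -0.40, SE 0.09, adjusted p = 0.00557).

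Genes of the presynaptic active zone rose in 13 of 47 cases and fell in 3 (median 0.181). The called members included close relatives with opposite signs. *Unc13b* and *Unc13c* encode proteins that prime synaptic vesicles. *Unc13b* was at 200 to 244 CPM in ctrl and at 143, 138, 157, 134 and 131 CPM in cKO-E (log2 fold change -0.63, SE 0.06, adjusted p = 4.53e-06), and *Unc13c* was at 1.29 to 6.39 and at 13.1, 17, 25.1, 6.1 and 3.01 CPM (log2 fold change 1.77, SE 0.40, adjusted p = 0.00527). The *Unc13c* groups overlapped, and its littermate log2 ratio was -0.47 in litter 7. *Rims2*, an organiser of the release site, fell from 389 to 499 CPM in ctrl to 280, 273, 256, 206 and 269 CPM in cKO-E (log2 fold change -0.80, SE 0.08, adjusted p = 3.82e-06). *Cacna1b*, the presynaptic N-type calcium channel, rose by 0.74 (SE 0.13, adjusted p = 0.000743). Of 35 ion channel genes 11 rose and 1 fell (median 0.31, and 18 rose without ctrl B), among them the embryonic sodium channel *Scn3a* (log2 fold change 0.82, SE 0.12, adjusted p = 0.000249), while the potassium channel *Kcnh5* fell by 0.70 (SE 0.11, adjusted p = 0.000317).

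Cell adhesion and guidance genes changed in both directions. Of 48 cadherin, contactin and protocadherin genes 17 rose and 3 fell (median 0.282, with 0.155 in batch 1 and 0.474 in batch 2). *Cntnap2*, a neurexin relative, lay at 159 to 225 CPM in ctrl and at 284, 295, 348, 325 and 285 CPM in cKO-E (log2 fold change 0.72, SE 0.08, adjusted p = 1.13e-05). The homophilic adhesion gene *Ncam2* rose by 0.58 (SE 0.08, adjusted p = 5.53e-05) and the contactin *Cntn4* by 1.61 (SE 0.23, adjusted p = 0.000123). The *Cntn4* groups overlapped, with cKO-E C at 23.7 CPM and the highest ctrl embryo at 28.4 CPM. The teneurin *Tenm4* and the protocadherin *Pcdh15* fell, by 0.39 (SE 0.06, adjusted p = 0.000177) and 0.83 (SE 0.15, adjusted p = 0.000859).

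Of 55 axon guidance genes 11 rose and 8 fell, with litter as a block 13 rose and 3 fell, and without cKO-E A 4 fell. *Slit3*, a ligand of the Robo receptors, was at 115 to 252 CPM in ctrl and at 348, 298, 618, 449 and 316 CPM in cKO-E (log2 fold change 1.18, SE 0.19, adjusted p = 0.000356). Its highest cKO-E value was in embryo C, but the lowest cKO-E embryo was still above the highest ctrl embryo. The netrin receptor *Unc5c* rose by 1.21 (SE 0.20, adjusted p = 0.00056) and the semaphorin co-receptor *Nrp2* by 0.55 (SE 0.09, adjusted p = 0.00044), opposite to its paralog *Nrp1*. The Eph receptors divided, with *Epha6* higher (log2 fold change 0.86, SE 0.15, adjusted p = 0.000737) and *Epha4* (-0.50, SE 0.07, adjusted p = 5.12e-05) and *Ephb2* (-0.39, SE 0.05, adjusted p = 9.97e-05) lower.

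**Figure D3:**
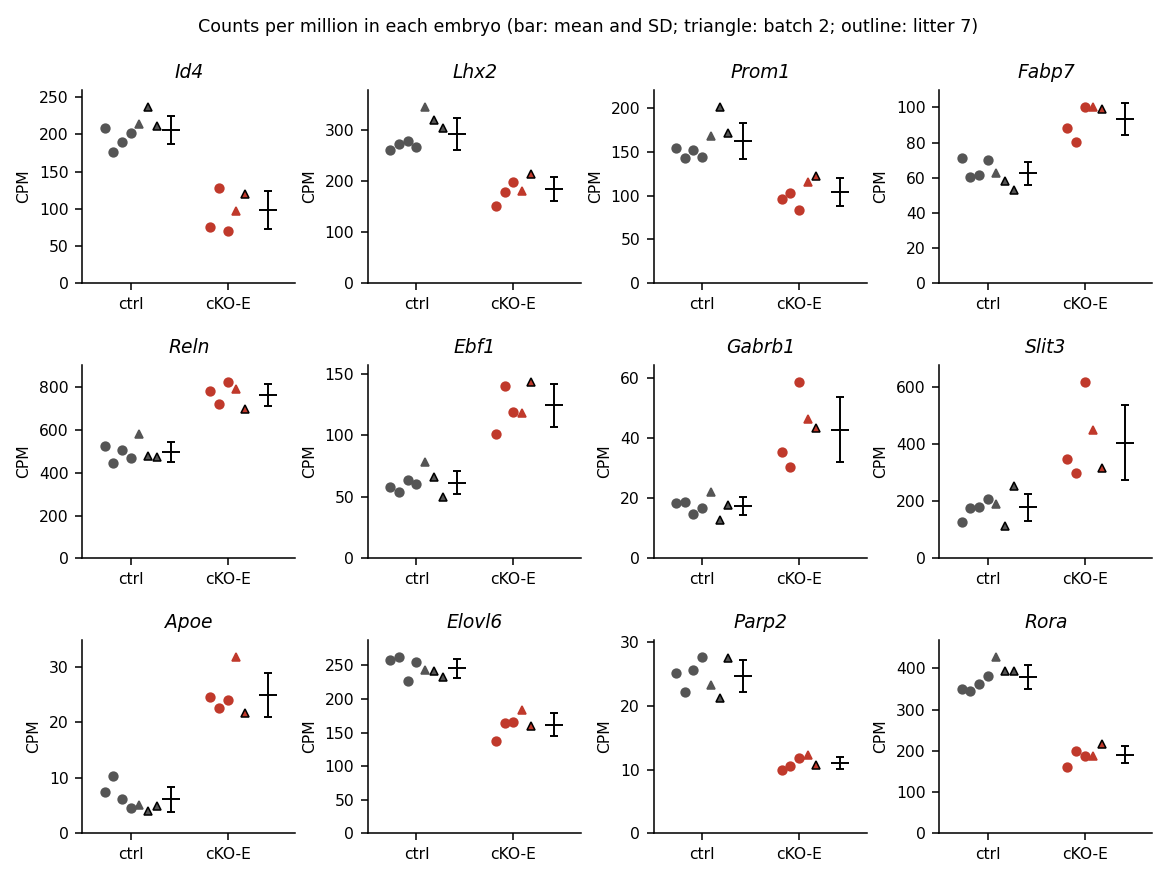
CPM of 12 genes (y axis, from 0) in each ctrl (grey) and cKO-E (red) embryo, with batch 2 as triangles, litter 7 outlined and the mean and SD beside each group. In these 12 genes no cKO-E embryo overlaps a ctrl embryo; *Id4*, *Lhx2*, *Prom1*, *Elovl6*, *Parp2* and *Rora* are lower and the others are higher.

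Microglia and macrophage genes were higher at low absolute levels, in that 7 of 8 tested markers rose and none fell. A gene can pass the filter by its level in 1 group alone, so genes high in cKO-E can be favoured among these 8. The summed level of all 41 listed genes, which needs no filter, was 46.3 to 66 CPM in ctrl and 114 to 152 CPM in cKO-E. *Apoe*, a lipid carrier made by macrophages and also by glia, lay at 4.06 to 10.4 CPM in ctrl and at 24.6, 22.6, 24, 31.7 and 21.7 CPM in cKO-E (log2 fold change 1.88, SE 0.19, adjusted p = 5.06e-06). *Inpp5d* (SHIP1), a lipid phosphatase of blood cells, rose by 1.25 (SE 0.28, adjusted p = 0.00556) from 1.35 to 7.74 CPM in ctrl, with overlapping groups. Among markers too low for the fit, *C1qa*, *C1qb*, *Trem2*, *Adgre1* and *Laptm5* were each higher on average in cKO-E at an exact two-sided permutation p of 0.00126, the smallest p that 5 against 7 libraries allow, and an adjusted p of 0.0253 over 261 such listed genes. *Trem2*, for example, had 0 counts in every ctrl library and 1 to 3 in the cKO-E libraries. Most of the listed microglial genes too low for the fit did not reach an adjusted p under 0.05 in this test. The homeostatic microglial gene *P2ry12* was lower on average in cKO-E (1.27 CPM, beside 1.83 CPM in ctrl, exact permutation p = 0.419). It had at most 8 counts in any library, and *Tmem119* (exact permutation p = 0.152) had at most 1.

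Lysosomal genes, which these cells express strongly and other cells also use, rose in 7 of 43 cases, and none fell (median 0.157). The protease genes *Ctsd* and *Ctsb* rose by 1.31 (SE 0.24, adjusted p = 0.00101) and 0.68 (SE 0.12, adjusted p = 0.00122), and *Psap*, the saposin precursor, by 0.35 (SE 0.08, adjusted p = 0.00404). *Ctsd* was low, at 1.8 to 4.52 CPM in ctrl, and its groups overlapped, with cKO-E D at 3.66 CPM. Other cell types had few calls. Of 3 meningeal fibroblast genes tested *Islr* was called higher and *Fn1*, fibronectin, lower, and neither was with litter as a block. None of 11 endothelial, 5 pericyte or 3 erythroid genes was called by edgeR's quasi-likelihood test, and 1, 1 and 0 of them had an unadjusted p under 0.05. The endothelial gene *Pecam1* differed by 0.30 on the log2 scale (SE 0.18, adjusted p = 0.288). Choroid plexus genes were too low to test, with *Ttr* at no more than 1 count in any library. Of 16 genes of the thalamus and other forebrain 4 were tested and 2 fell, both of which the cortex also expresses, and *Gbx2* of the thalamus was at 0 counts throughout. Widely expressed genes such as *Rpl13* and *Cox4i1* were also at 0 counts in every library, so such a 0 is not read as absence.

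Hedgehog pathway genes changed in both directions. The co-receptors *Cdon*, *Boc* and *Gas1* present the ligand, and all 3 fell. *Cdon* was at 1040 to 1530 CPM in ctrl and at 604, 867, 592, 800 and 846 CPM in cKO-E (log2 fold change -0.73, SE 0.11, adjusted p = 0.000177), and *Boc* fell by 0.44 (SE 0.08, adjusted p = 0.000754) and *Gas1* by 0.79 (SE 0.17, adjusted p = 0.00332). *Ptch1*, which is both the inhibitory receptor and a target of the pathway, rose from 11.7 to 22.4 CPM in ctrl to 27.3, 28.4, 35.5, 50 and 28.1 CPM in cKO-E (log2 fold change 0.85, SE 0.16, adjusted p = 0.00142). *Etv5*, an ETS factor induced by FGF signals, rose from 11.6 to 30.2 CPM to 46.3, 67.2, 47.7, 64.7 and 54.8 CPM (log2 fold change 1.45, SE 0.18, adjusted p = 3e-05). Over the 22 tested hedgehog and FGF genes 8 fell (5 without cKO-E C) and 3 rose.

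In the Notch pathway, which maintains progenitors, 9 of 35 genes fell and 4 rose (median -0.129, and 1 rose without cKO-E C). The receptors *Notch1* and *Notch2* fell by 0.41 (SE 0.08, adjusted p = 0.00209) and 0.33 (SE 0.06, adjusted p = 0.00171), as did the Notch antagonist *Numb* (0.33, SE 0.05, adjusted p = 0.000534). The ligand *Jag2* rose by 1.03 (SE 0.23, adjusted p = 0.00502) from a low level of 3.23 to 7.99 CPM in ctrl, with overlapping groups. Of 37 Wnt genes 5 fell and 2 rose, near the background. *Tcf7l1*, a repressor of Wnt targets, was the most changed in p, with 373 to 541 CPM in ctrl and 245, 248, 204, 317 and 293 CPM in cKO-E (log2 fold change -0.80, SE 0.10, adjusted p = 4.48e-05).

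Of 28 factors that pattern the cortical sheet 9 fell and 3 rose (median -0.255, and -0.158 in batch 1 and -0.109 in batch 2), and in batch 2 alone 2 fell and 2 rose. The 3 nuclear factor I genes of the list fell, *Nfix* by 0.63 (SE 0.08, adjusted p = 2.98e-05), *Nfia* by 0.30 (SE 0.06, adjusted p = 0.0017) and *Nfib* by 0.30 (SE 0.06, adjusted p = 0.00173). *Emx2*, which sets medial and caudal identity, fell by 0.62 (SE 0.15, adjusted p = 0.00862) with overlapping groups. *Emx1* fell by 0.34 (SE 0.09, adjusted p = 0.0103, and 0.0424 with litter as a block), but the Cre driver sits in this gene, so that an effect of the allele cannot be told apart from one of *Ino80*.

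The p53 pathway and apoptosis genes are given only briefly. Of 29 p53 target genes 17 rose and 1 fell, and of 37 apoptosis genes 8 rose and 3 fell. The one that fell, *Rprm*, encodes a p53-induced arrest protein, and lay at 33.9 to 46 CPM in ctrl and at 24, 30.9, 25.1, 20.8 and 22 CPM in cKO-E (log2 fold change -0.65, SE 0.11, adjusted p = 0.000715). *Mgmt*, a repair protein that removes alkyl groups from DNA, rose by 1.46 (SE 0.18, adjusted p = 3.27e-05), and *Tnfrsf10b*, the TRAIL receptor, by 1.77 (SE 0.22, adjusted p = 2.98e-05).

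Repair genes that were called were mostly lower. Of 53 genes of homologous recombination 5 fell (9.43%, near the 9.88% over all genes tested) and 1 rose. The number that fell was 12 without ctrl B, 3 without cKO-E B or C and 7 with litter as a block. Of 56 other damage and repair genes 9 fell (16.1%) and 2 rose, and the firmest calls concerned the joining of broken ends and the repair of bases. *Prkdc*, the catalytic subunit of DNA-PK, was at 109 to 142 CPM in ctrl and at 61.4, 54.6, 63.8, 51.3 and 65.1 CPM in cKO-E (log2 fold change -1.01, SE 0.08, adjusted p = 7.19e-07). *Parp2*, a poly(ADP-ribose) polymerase that binds DNA breaks, was at 21.2 to 27.6 CPM in ctrl and at 9.85, 10.6, 11.8, 12.2 and 10.7 CPM in cKO-E (log2 fold change -1.18, SE 0.12, adjusted p = 4.33e-06). In both genes the groups did not overlap. The glycosylase *Neil3* fell by 0.63 (SE 0.08, adjusted p = 2.83e-05) and, among recombination genes, the BRCA1 partner *Abraxas1* by 1.02 (SE 0.15, adjusted p = 0.000214).

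Of 56 histone methylation and polycomb genes 17 fell and none rose (median -0.122), with 10 falling when litter was a block and 2 within batch 2. *Suz12*, a core subunit of polycomb repressive complex 2, was at 189 to 252 CPM in ctrl and at 142, 132, 146, 143 and 168 CPM in cKO-E (log2 fold change -0.54, SE 0.09, adjusted p = 0.000364), and the H3K4 methyltransferase *Kmt2d* fell by 0.44 (SE 0.07, adjusted p = 0.000588). Of 54 remodellers outside the INO80 complex 10 fell (18.5%) and 4 rose (1 without cKO-E B or C). The share that rose, 7.41%, was near the 7.31% over all genes tested. Those that fell included *Baz1a* and *Bptf*, subunits of ISWI complexes (log2 fold changes -0.60, SE 0.09, adjusted p = 0.000128, and -0.30, SE 0.05, adjusted p = 0.000505). Among 23 histone variant and chaperone genes 5 fell (3 without cKO-E D) and 1 rose, and of 15 DNA methylation genes 3 fell and 1 rose.

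Of 33 nuclear receptor and corepressor genes 9 fell and 3 rose, and the ROR family divided. *Rora* was at 345 to 427 CPM in ctrl and at 162, 201, 186, 187 and 217 CPM in cKO-E, below every ctrl embryo (log2 fold change -0.99, SE 0.08, adjusted p = 2.98e-07). *Rorb*, known from sensory areas of the later cortex, was at 48.4 to 84.8 CPM in ctrl and at 129, 127, 110, 120 and 115 CPM in cKO-E, above every ctrl embryo (log2 fold change 0.75, SE 0.11, adjusted p = 0.000114). *Ncor1*, a scaffold of the corepressor complex with HDAC3, fell by 0.65 (SE 0.06, adjusted p = 1.49e-06), and the mineralocorticoid receptor *Nr3c2* rose by 1.47 (SE 0.24, adjusted p = 0.000437).

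Of 29 tested genes of cholesterol and lipid synthesis 14 fell, none rose, and every one had a negative log2 fold change, the median being -0.254 (-0.279 in batch 1 and -0.26 in batch 2). With litter as a block 7 fell. *Srebf2*, the transcription factor that drives the pathway, was at 184 to 223 CPM in ctrl and at 149, 146, 150, 159 and 166 CPM in cKO-E (log2 fold change -0.40, SE 0.06, adjusted p = 0.000282). *Elovl6*, which elongates fatty acids, was at 226 to 262 CPM in ctrl and at 137, 164, 165, 183 and 160 CPM in cKO-E (log2 fold change -0.62, SE 0.07, adjusted p = 1.08e-05). In both genes every cKO-E embryo was below every ctrl embryo.

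Cytosolic ribosomal protein genes fell in 21 of 78 cases and rose in 1 (median -0.152, 12 falling without cKO-E C and 7 within batch 2). They share reads with many processed pseudogenes, which leaves their counts uncertain. *Rpl12* fell by 0.34 (SE 0.05, adjusted p = 0.000323) and *Rpl17* by 0.60 (SE 0.10, adjusted p = 0.000588). Of 57 splicing and RNA-binding genes 8 fell and 1 rose, led by *Hnrnpm* (log2 fold change -0.47, SE 0.06, adjusted p = 3.45e-05). Other groups had fewer calls. Of 42 ubiquitin and neddylation enzymes 5 fell (11.9%, near the background, and 3 without cKO-E B, C or E) and 2 rose (4.76%). Those that fell included the neddylation enzyme *Uba3*, from 77 to 99.2 CPM in ctrl to 37.4, 46, 48.4, 37.8 and 38.7 CPM in cKO-E (log2 fold change -1.03, SE 0.09, adjusted p = 1.25e-06). In the respiratory chain 4 of 70 nuclear-encoded genes fell (2 without cKO-E C) and 1 rose, with *Sdha* of complex II among those that fell (log2 fold change -0.64, SE 0.07, adjusted p = 6.12e-06). Of 26 glycolytic genes 2 fell and 1 rose, of 36 stress response genes 2 fell and 1 rose, of 42 proteasome genes 2 fell and 2 rose, and of 51 ribosome biogenesis and translation genes 3 fell and 2 rose. None of 17 clock genes and none of 6 tested interferon response genes was called by edgeR, and 3 and 0 of them had an unadjusted p under 0.05. Most of the 45 listed interferon genes were too low for the fit. Of these *Trim30a*, chosen after its values were seen, averaged 0.188 CPM in ctrl and 1.35 CPM in cKO-E (exact permutation p = 0.00126, adjusted p = 0.0253). The others did not reach an adjusted p under 0.05 in that test. Of 57 primary cilium genes 7 fell (12.3%) and 3 rose (5.26%), near the background (4 and 0 with litter as a block). Of 56 RNA polymerase II and Mediator genes 4 fell and 1 rose, and of 9 mitochondrially encoded genes 1 fell and 1 rose.

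**Figure D4:**
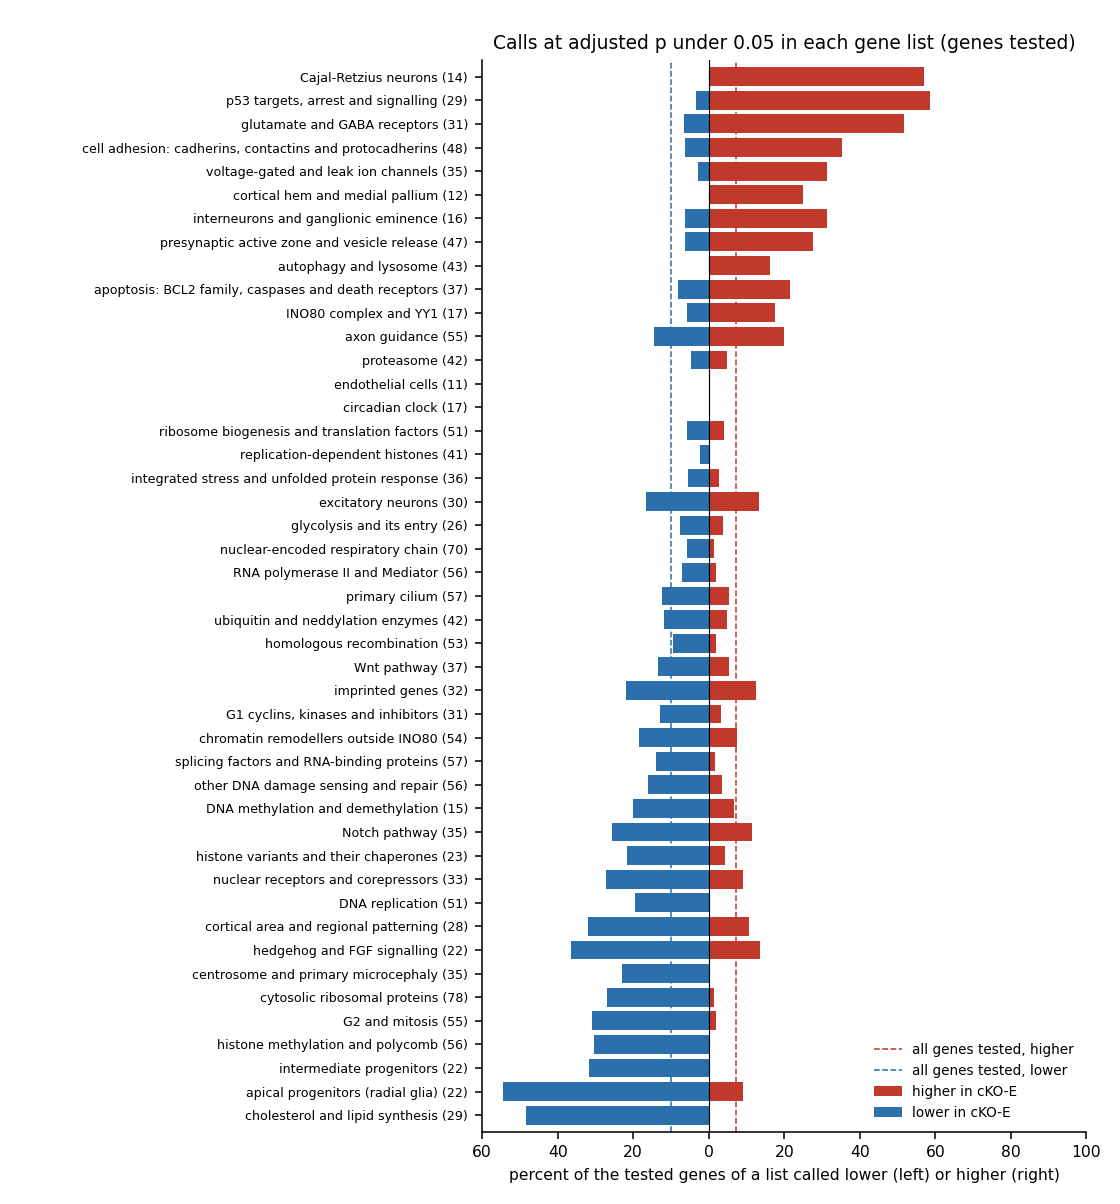
Percent of the tested genes of each list that were called lower (blue, left) or higher (red, right) at an adjusted p under 0.05, for lists with at least 10 tested genes, with the number tested in brackets. The dashed lines give the shares over all genes tested, 9.88% lower and 7.31% higher; cholesterol synthesis and apical progenitors reach farthest to the left, and p53 targets, Cajal-Retzius genes and receptors farthest to the right.

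Called genes were longer in genomic span than the rest. Among 2235 genes under 10 kb, 3.04% rose and 4.88% fell, and both shares grew with span, to 13.8% and 17.1% among 1598 genes of 100 to 300 kb. Among 542 genes of at least 300 kb, 29.2% rose and 16.4% fell, so that only in this class did rises outnumber falls. Many long genes encode adhesion molecules, receptors and channels, and longer genes also collect more counts, and the part of either in these shares was not tested. By chromosome the share that fell was highest on chromosome 12 (15.1% of 445 genes) and the X (14.9% of 409), and 7.64% and 5.13% rose. The sexes are unequal between the groups, and their part in the X values was not tested. Within 1 Mb of *Ino80* 33 genes were tested, of which 5 fell and none rose. Within 5 Mb, 9 of 82 fell and 5 rose, near the shares over all genes tested. The nearer 5 include *Ivd* and *Rpap1*, which are named because of their place, and the strain origin of the alleles around the floxed locus was not tested.

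The promoters of genes that fell carried a YY1 motif more often than those of other genes. YY1 is a zinc finger factor that copurifies with the INO80 complex. Windows of 250 bases before to 50 bases after each start site (RefSeq, GRCm38.p6) were available for 8999 of the 11660 genes tested and were searched on both strands. The motif AANATGGCG was in the windows of 6.35% of these genes, of 13.3% of the 900 that fell and of 2.34% of the 640 that rose. At an adjusted p under 0.001 the shares were 12.3% of 219 and 2.13% of 94. Read the other way, of the 571 genes with the motif 21% fell and 2.63% rose, and of the 8428 without it 9.25% fell and 7.42% rose. Counted per window over all 32851 windows of the table, 2.38% held it, a share with another denominator, since a gene can have several windows. These shares are descriptions of the windows, and neither binding nor a cause follows from a match.

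The sites of the 8 genes with the smallest p among those that fell at 0.001, and of *Srebf2*, *Bptf* and *Rictor* (a subunit of mTOR complex 2), are shown because their genes are among those that fell. *Rictor* and the genes not named above were chosen after their values were seen. Each is printed 5′ to 3′ on the strand of the motif, with the 9 motif bases in capitals.
Zfp292, chr4:34882904-34882932 (minus strand): gcgggctgcgAAGATGGCGgacgatgagg
Ncor1, chr11:62457289-62457317 (minus strand): gggttgaggcAAGATGGCGgctaaggtgg
Zdhhc17, chr10:111009985-111010013 (minus strand): atttaacaccAAGATGGCGgacggcccgg
Metap1d, chr2:71453346-71453374 (plus strand): gaccggagccAACATGGCGgcgcccatcg
Ppp4r3b, chr11:29172981-29173009 (plus strand): gtcgggttacAAGATGGCGgatctgtagt
Rpl7l1, chr17:46782617-46782645 (minus strand): aagcaccggaAAGATGGCGgaggaagggt
Ppp1r7, chr1:93343647-93343675 (plus strand): aagagcagccAATATGGCGgcagagcgcg
Pspc1, chr14:56778299-56778327 (plus strand, opposite to the gene): ccgaacgctcAAAATGGCGctgcttcaaa
Srebf2, chr15:82147257-82147285 (plus strand): gcgcagctcaAACATGGCGgcggttggca
Bptf, chr11:107132104-107132132 (minus strand): gggaagaaacAAGATGGCGgctgcaggcg
Rictor, chr15:6708390-6708418 (plus strand): gaaacccgtcAATATGGCGgcgatcggcc
In 10 of these 11 genes the motif lies on the strand of the gene. With the start site counted as 0, its first base is at 26 in *Zfp292*, 25 in *Ncor1*, 21 in *Rpl7l1*, 25 in *Bptf* and -2 in *Srebf2*. Among the 27 sites of genes that fell at 0.001, 24 (88.9%) begin at or after the start site, beside 53.7% of the 624 sites of all genes tested. *Zfp292*, a zinc finger gene, was at 471 to 523 CPM in ctrl and at 334, 312, 316, 292 and 319 CPM in cKO-E (log2 fold change -0.67, SE 0.05, adjusted p = 4.58e-07).

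The other motifs were searched in the same windows. The E2F motif TTTCCCGC was in the windows of 2.61% of all genes tested, 4% of those that fell and 2.19% of those that rose, and a CCAAT box was in 43.7%, 46% and 41.1%. The p53 motif searched, a single decamer of the paired site, was in the windows of 8.1% of all genes tested, 10.3% of those that rose and 7.56% of those that fell, and in 16% of the 94 genes that rose at 0.001.

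**Figure D5:**
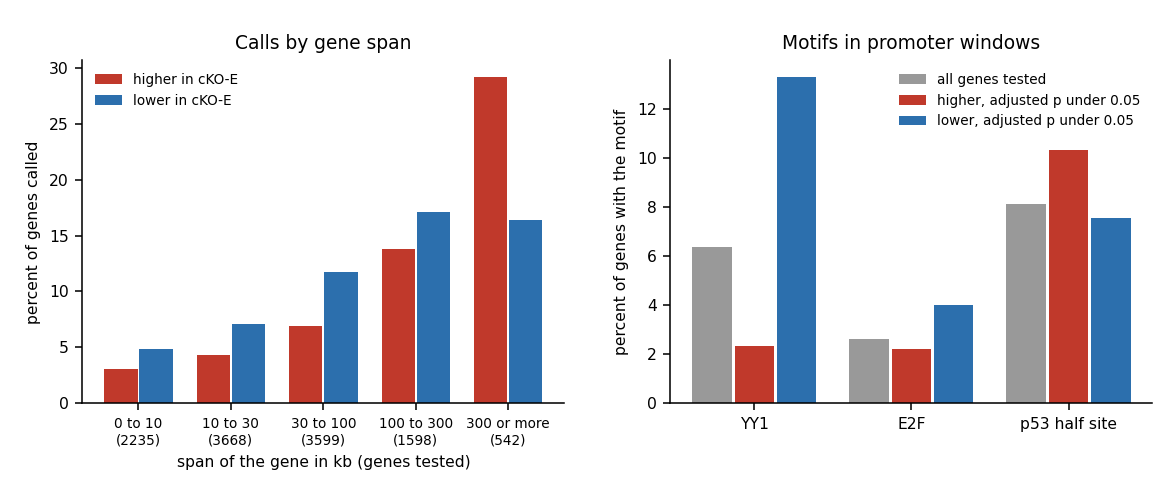
Left, percent of genes called higher (red) or lower (blue) at an adjusted p under 0.05 by the genomic span of the gene in kb, with the number tested in brackets. Right, percent of genes whose promoter windows hold a YY1, E2F or p53 motif, for all genes tested (grey), those higher (red) and those lower (blue); the YY1 share is 13.3% among lower and 2.34% among higher genes.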

How the data were processed

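Cortex from 12 embryos (7 ctrl, 5 cKO-E) was profiled by Click-seq from rRNA-depleted, randomly primed total RNA with molecular identifiers. The authors deposited raw counts per gene in 1 file for each library. The submitters' processing notes name bcl2fastq 2.17, cutadapt 1.13, STAR 2.5.2a, UMI-tools 0.5.3, HTSeq 0.6.1p1 and edgeR 3.20.9, with the build GRCm38 (mm10). Whether counting used strand is not given in the sources used here, so overlapping and antisense genes cannot be told apart. Rows for reads not assigned to a gene were left out (24.3% to 31.8% of a library).

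Of 51912 gene IDs, 51719 were matched to GENCODE M21 and 193 were not. Genes were filtered with filterByExpr (minimum count 10), scaled by TMM and tested with edgeR 4.0.16 (R 4.3.3) by the quasi-likelihood test with Benjamini-Hochberg adjustment, with no covariate. The SE is the absolute log2 fold change over the square root of F. CPM uses the TMM factors, and littermate ratios use a pseudocount of 0.5 CPM. Listed genes below the filter were tested by a two-sided exact permutation test of mean CPM. Scripts were tested on simulated data.

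The 53 gene lists and the tests were chosen with earlier results of these data known. Genes were named by rule: *Ino80*, per direction the 15 smallest p without overlap and the 10 largest fold changes at an adjusted p under 0.001 (the latter at a mean of at least 5 CPM), up to 4 called genes per list and direction, and the first 3 of each cell type list. Not every gene the rule covers is printed, and some of the first 3 markers are among those left out. *Lhx1*, *Aif1* and *Cldn5*, for example, were too low for the fit (exact permutation adjusted p = 0.0388, 0.919 and 0.919). Of the 111 tested genes given with their values, 108 were called. The named genes therefore do not show how uniformly a list changed, for which the counts per list are given.

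Litter is a label shared by both genotypes in 3 litters. Deviations from the group means correlated between same-litter embryos at 0.18 (litter 4), 0.24 and -0.089 (litter 5), and 0.37 and 0.25 (litter 7). Alternatives were other filters and scalings, DESeq2 1.42.0, batch, sex or litter terms, subsets and each embryo left out. Each library is 1 embryo.

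A few genes are not reported here.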

Additional observations from a re-analysis of the deposited data

Results flagged for a closer look

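Among 222 groups of embryos checked, 1 for each genotype of 111 tested genes given above with their values, 6 held an embryo far from the others of its genotype by Dixon's criterion, which chance alone meets in about 1 of 20 groups. In cKO-E, embryo E held 22 CPM of *Lmx1a* (next highest 6.9), embryo C held 87.9 CPM of *Epha6* (next 54.1), and embryo A held 3120 CPM of *Nfia* (next lowest 3650). In ctrl, embryo H held 28.4 CPM of *Cntn4* (next highest 16.8) and 97.9 CPM of *Gas1* (next 70.3), and embryo D held 27.6 CPM of *Ltbp3* (next lowest 31.6). Embryos H of ctrl and E of cKO-E are of litter 7. An interaction of sex and genotype was called for 0 of 11660 genes by edgeR's quasi-likelihood test at an adjusted p under 0.05, and 308 genes (2.64%) had an unadjusted p under 0.05, with 1 male in cKO-E.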

How the results depend on the processing

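At an adjusted p under 0.001 in place of 0.05, 124 genes were higher and 270 lower. In batch 2 alone (3 ctrl, 2 cKO-E) 309 genes were higher and 297 lower, and in females alone 533 and 751. With 1 embryo left out the genes called higher ranged from 547 to 958 and those called lower from 879 to 1199. The lowest counts of higher genes came without cKO-E C (547) and without cKO-E A (565). Fewer embryos enter these subsets. The Ino80 log2 fold change was 0.408 in batch 2 alone (adjusted p = 0.0599) and 0.449 to 0.506 with 1 embryo left out. The letter in an embryo's label is shared between genotypes but joins embryos of different litters. Same-letter deviations correlated at -0.0096, 0.16, 0.0018 and -0.021, and with the letter as a replicate block 754 genes were higher and 1038 lower. With litter as a block, 642 were higher and 833 lower, and among genes named above this ended the calls of *Eomes*, *Fn1*, *Ino80d*, *Islr*, *Lmx1a* and *Pax6*. DESeq2 gave 757 and 1124. Leaving out litter 7, chosen after seeing the data, gave 771 and 1113. Beside *Ino80*, 27 of the genes given with their values lost the call in batch 2 alone, and none of the named values reversed under the alternatives run. Depth limits low genes most in cKO-E D.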

Other observations

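Several of the firmest differences lay outside the gene groups described above. *Galntl6*, a member of the family that starts mucin-type glycosylation, was at 43.8 to 81.2 CPM in ctrl and at 162, 187, 169, 179 and 188 CPM in cKO-E (log2 fold change 1.60, SE 0.12, adjusted p = 1.95e-07). *Sulf2*, a sulfatase that edits heparan sulfate outside the cell, was at 14.5 to 19.8 CPM in ctrl and at 38.4, 39, 35.1, 39.1 and 47.8 CPM in cKO-E (log2 fold change 1.22, SE 0.11, adjusted p = 1.17e-06). In both genes the cKO-E values all exceeded the ctrl range, which was a condition of naming them and no separate result. *Slc1a2*, the glutamate transporter GLT-1, rose by 0.97 (SE 0.10, adjusted p = 4.33e-06), and *Tfap2d*, an AP-2 transcription factor, by 1.82 (SE 0.31, adjusted p = 0.000594).

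Genes of the extracellular matrix were among those that fell. *Ltbp3*, which encodes a binding protein of latent TGF-beta, was at 27.6 to 33 CPM in ctrl and at 14.5, 16.2, 14, 17.1 and 16.7 CPM in cKO-E (log2 fold change -1.03, SE 0.10, adjusted p = 2.08e-06). Its relative *Ltbp4* fell by 1.24 (SE 0.15, adjusted p = 2.33e-05), the basement membrane gene *Fras1* by 0.70 (SE 0.06, adjusted p = 1.49e-06) and the collagen *Col2a1* by 1.22 (SE 0.17, adjusted p = 0.000101). None of these 4 genes overlapped between the groups, but for *Ltbp3* and *Fras1* this was a condition of being named. *Ltbp4* and *Col2a1* were named among genes lower at an adjusted p under 0.001, of which 266 of 270 did not overlap. The lack of overlap is therefore no separate result. Matrix genes were not a list here, so no count is given for them.

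Imprinted genes, which are expressed from 1 parental allele, moved in both directions. Of 32 tested genes 4 rose and 7 fell, with a median log2 fold change of 0.0571. *Mest* was at 32.4 to 42.4 CPM in ctrl and at 57.5, 75, 62, 76.9 and 63.1 CPM in cKO-E (log2 fold change 0.85, SE 0.10, adjusted p = 1.62e-05), whereas *Grb10*, a growth inhibitor, was at 510 to 707 and at 393, 446, 386, 432 and 480 CPM (log2 fold change -0.49, SE 0.08, adjusted p = 0.000522). *Sgce* rose by 0.45 (SE 0.08, adjusted p = 0.000743) and *Plagl1* fell by 0.35 (SE 0.07, adjusted p = 0.00305).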
